A study of Drosophila melanogaster with 8 samples.

Results

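The tetraspanin genes of Drosophila melanogaster were followed in ventral nerve cords of wit mutant and control larvae. Members were all genes whose FlyBase symbol is Tsp followed directly by a digit, plus lbm (late bloomer), which gave 35 of the 14175 genes in the files. Of these, 18 form the 42E cluster on chromosome arm 2R, namely the 17 genes named Tsp42E and lbm, and 17 lie elsewhere. Tsp42A is among the 17 others, because it lies outside the cluster. The comparison asks which of them change in transcript level when wit (wishful thinking), the gene of a BMP type II receptor, is mutated on both chromosomes.

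Tetraspanins are small proteins that cross the membrane 4 times and gather receptors, adhesion molecules and proteases into patches on the cell surface and on endosomes. In the fly nervous system the best known is lbm, which is found on motor axons and growth cones and speeds the first formation of synapses on muscle. Other 42E genes have been reported to overlap with it in that role. Tsp42Ej, also called sunglasses, sends rhodopsin to lysosomes in photoreceptors. Tsp3A, Tsp26A and Tsp86D belong to the group that brings the protease Kuzbanian to the cell surface and so promotes Notch signalling. Tsp2A is a part of the smooth septate junctions of gut epithelia. BMP signalling through wit is a signal from muscle that motor and neurosecretory neurons need for synapse growth and for the expression of certain genes.

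Mutants were w;;witA12,st1/witB11,st1 and controls were w;;witA12,st1/+, so both genotypes carried w and 1 chromosome with witA12 and st1, and they differed in the other copy of chromosome 3. All larvae were wandering females in a w1118 background, raised at 25 °C with 80 per vial. Each genotype had 4 libraries, and each library pooled 25 nerve cords freed of brain lobes. The wit alleles were carried by all cells of the larvae, so effects in the nerve cord and effects from other tissues cannot be told apart. In pooled tissue fewer cells of a type and less RNA per cell cannot be told apart.

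Mutant libraries held 20923717 to 32028719 estimated counts and control libraries 26746219 to 32740480. Levels are CPM, the count relative to the TMM-scaled total of its library, and ± gives the SD over 4 libraries. Fold changes are mutant over control from edgeR's quasi-likelihood test, with a call at a Benjamini-Hochberg adjusted p under 0.05 over all 9176 genes tested. Mutant library 1 stood apart from the other mutant libraries on the second principal component, which held 16.0% of the variance. The tissue label was checked with the neuronal gene elav (1074 CPM in mutants, 1156 CPM in controls) and the glial gene repo (108 CPM in mutants, 113 CPM in controls), which were both abundant. The muscle myosin gene Mhc was at 0.458 CPM in mutants and 0.520 CPM in controls. Muscle transcripts were not absent, as the muscle marker sls was at 40.1 CPM in mutants and 34.3 CPM in controls. The 7 muscle markers summed to 47.4 to 57.5 CPM in mutants and 44.6 to 51.6 CPM in controls. Most of these sums was sls, which has 58996 bases of exon, against 9058 for Mhc. CPM is not scaled by exon length. The wit transcript was at 86.9 ± 3.97 CPM in mutants and 90.6 ± 3.43 CPM in controls (adjusted p = 0.371). The lesions of the alleles are not named in the labels, so this level does not check the genotype.

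In the mutants 4 genes of the 42E cluster fell (Tsp42Ef, Tsp42El, Tsp42Eg and Tsp42En), 1 gene outside it fell by a small amount (Tsp66E), and 0 tetraspanin genes rose. The count filter left 21 of the 35 genes for testing, 10 of the cluster and 11 of the others. Over all genes tested 14.8% were called, 8.66% as lower and 6.12% as higher in mutants. The 4 falls in the cluster cannot be set against that share as they stand, because Tsp42Eg and Tsp42En passed the filter through the control libraries alone and so had to be lower in mutants. Of the other 8 cluster genes tested, 2 fell, and of the 11 genes outside the cluster 1 fell. Whether the cluster differs from the other tetraspanin genes was not tested. Beside the 0 rises of edgeR's test, 2 genes (lbm and Tsp42Ep) were higher at an unadjusted p under 0.05, 1 (lbm) passed with the DESeq2 Wald test and 2 (lbm and Tsp42Ep) with limma-voom.

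Tsp42Ef (FBgn0033127, 2R:7025010-7028082 on BDGP6, protein-coding) had the smallest p of the family. Its transcript was at 24.3, 23.5, 23.0 and 23.8 CPM in mutant libraries 1 to 4 and at 44.1, 44.2, 44.5 and 42.0 CPM in control libraries 1 to 4. The groups were far apart, with a spread of at most 1.13 CPM (SD) within either one. Means were 23.6 ± 0.548 CPM in mutants and 43.7 ± 1.13 CPM in controls, a 1.85-fold lower level (log2 fold change -0.89, SE 0.04, edgeR adjusted p = 6.18e-08). When each library was left out in turn, the adjusted p ran from 9.07e-09 to 1.61e-06. Per kilobase of exon Tsp42Ef was the 5th most abundant of the 35 genes in controls and the 9th in mutants.

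Tsp42El (FBgn0033134, 2R:7045769-7048538, protein-coding) was less abundant. It was at 3.27, 4.66, 3.95 and 3.74 CPM in the mutant libraries, against 6.08, 6.39, 5.20 and 6.89 CPM in the control libraries. The highest mutant value lay below the lowest control value. The mean fell to 3.90 ± 0.577 CPM in mutants, against 6.14 ± 0.711 CPM in controls (1.57-fold lower, log2 fold change -0.65, SE 0.13, adjusted p = 0.00553), and the call held without any 1 library, with adjusted p up to 0.0215.

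Tsp42Eg and Tsp42En were rare transcripts in both genotypes. Tsp42Eg (FBgn0033128, 2R:7028911-7033233) had 5, 1, 10 and 6 counts in the mutant libraries and 18, 24, 36 and 19 counts in the control libraries. These correspond to 0.197 ± 0.114 CPM in mutants and 0.859 ± 0.324 CPM in controls (log2 fold change -2.06, 95% interval -3.00 to -1.12, adjusted p = 0.00803). Tsp42En (FBgn0033135, 2R:7052747-7054399) had 2, 5, 0 and 2 counts in the mutant libraries, against 24, 17, 16 and 21 counts in the control libraries. In CPM it was at 0.0900 ± 0.0819 in mutants and 0.682 ± 0.119 in controls (log2 fold change -2.96, 95% interval -4.06 to -1.86, adjusted p = 0.00236). The groups did not overlap for either gene, which follows from both passing the filter through control libraries alone. Both calls held without any 1 library, at adjusted p up to 0.0288 for Tsp42Eg and 0.0096 for Tsp42En. Those fits used the same kind of filter, so the direction there was fixed as well. A floor of 3 counts corresponds to 0.0926 to 0.142 CPM per mutant library, so Tsp42En was at or under that floor in 3 of 4 mutant libraries and its fold change has a wide error. With a filter of 1 CPM in 4 libraries neither gene is tested, which leaves Tsp42Ef and Tsp42El as the falls of the cluster.

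**Figure D1:**
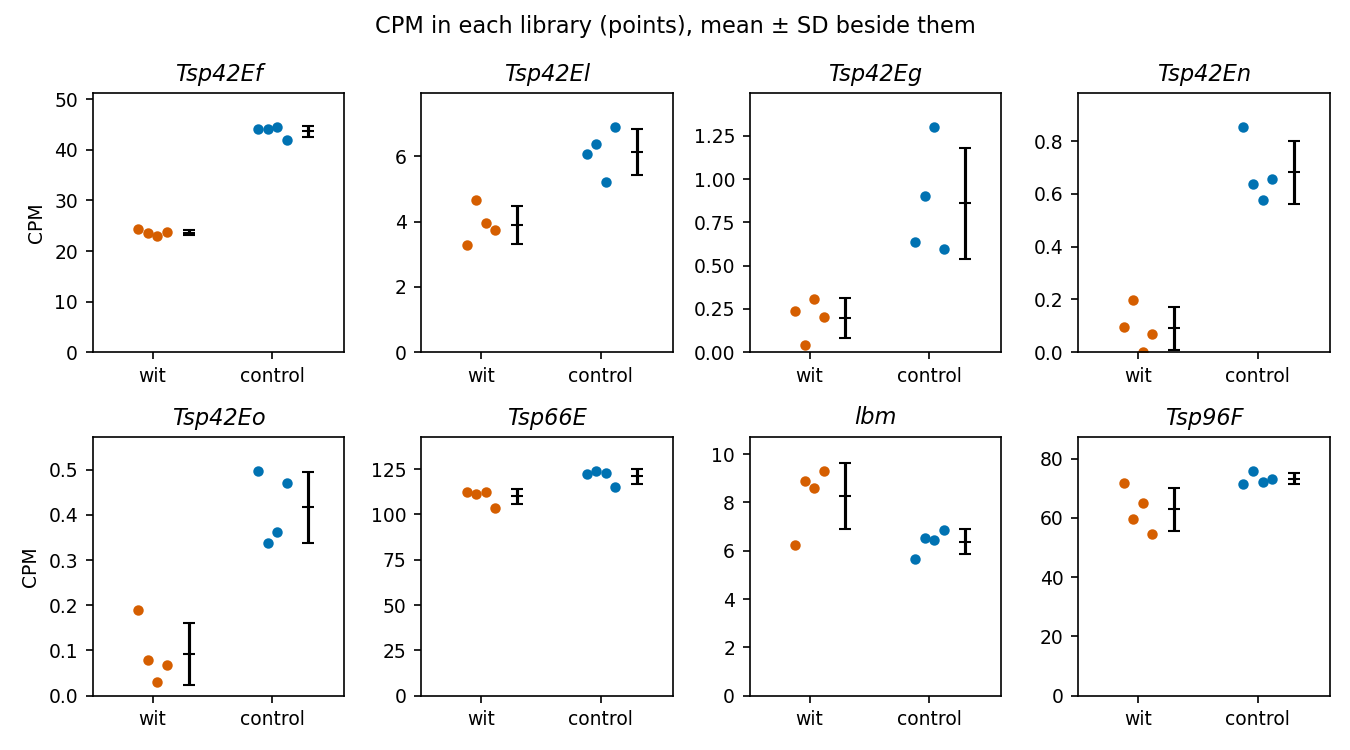
CPM in each library for 8 tetraspanin genes, with mutant (wit) libraries left and control libraries right of each panel; points are libraries, and the bar beside them is the mean ± SD over 4 libraries. The groups do not overlap for Tsp42Ef, Tsp42El, Tsp42Eg, Tsp42En, Tsp42Eo and Tsp66E, and they do for lbm, where mutant library 1 is at 6.25 CPM, and for Tsp96F, where it is at 71.9 CPM.

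A further gene of the cluster, Tsp42Eo, was below the filter but followed the same direction. It had 4, 2, 1 and 2 counts in the mutant libraries and 14, 9, 10 and 15 counts in the control libraries. The summed counts of 9 in mutants and 48 in controls give a depth-corrected ratio of 0.198, with a 95% counting interval of 0.0854 to 0.408. It passed in the fit without a count filter (log2 fold change -2.23, adjusted p = 0.0084) and with the DESeq2 Wald test (adjusted p = 0.00762). It also passed without mutant library 1, mutant library 2 or control library 2. Into the fits that left out a library it entered through control libraries alone, so its direction in them was fixed. The annotated exons of Tsp42Eo, 889 bases, lie wholly within the exons of Tsp42Ep on the opposite strand. The library kit keeps strand, but none of the sources used here says whether counting used it, so reads of this pair may not be told apart. Tsp42Ep was not lower: it was at 2.27, 2.33, 2.31 and 2.11 CPM in mutants and at 2.13, 1.43, 1.34 and 1.69 CPM in controls. Control library 1 overlapped with the mutants, and the difference missed the test (log2 fold change 0.45, SE 0.17, adjusted p = 0.0986), though it passed without control library 1 (0.0381).

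In genomic order the falls did not form a single block. The cluster spans 73438 bases (2R:6992676-7066113), and counted from its low-coordinate end Tsp42Ef and Tsp42Eg are the 6th and 7th genes, 828 bases apart on the same strand. Tsp42El is the 12th and Tsp42En the 14th, and lbm lies between them, 699 bases after Tsp42El and 782 bases before Tsp42En. Of the genes next to the falls, Tsp42Ee, Tsp42Ek, lbm and Tsp42Ep did not pass the test and Tsp42Eh was below the filter. Of 8 other annotated genes within the span that the files list, 6 were tested and 3 rose, which were named after their values were seen. They were CG33914 at 17.9 ± 1.32 CPM in mutants and 10.7 ± 0.822 CPM in controls (log2 fold change 0.74, adjusted p = 5.19e-05), CG30159 (0.42, adjusted p = 0.00108) and Pgant3, which encodes a glycosyltransferase (0.17, adjusted p = 0.0368). The calls of CG33914 and CG30159 held in all 14 alternatives, and that of Pgant3 was lost in 8, with adjusted p from 0.0519 to 0.0909, namely with the DESeq2 Wald test and without any 1 library other than mutant library 1. CG30159 shares 97 exonic bases with Tsp42Ea on the same strand, and CG33914 shares 182 exonic bases with Tsp42Ei on the opposite strand. Exons of Tsp42Ef, Tsp42Eg, Tsp42El and Tsp42En overlap no exon of another annotated gene.

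**Figure D2:**
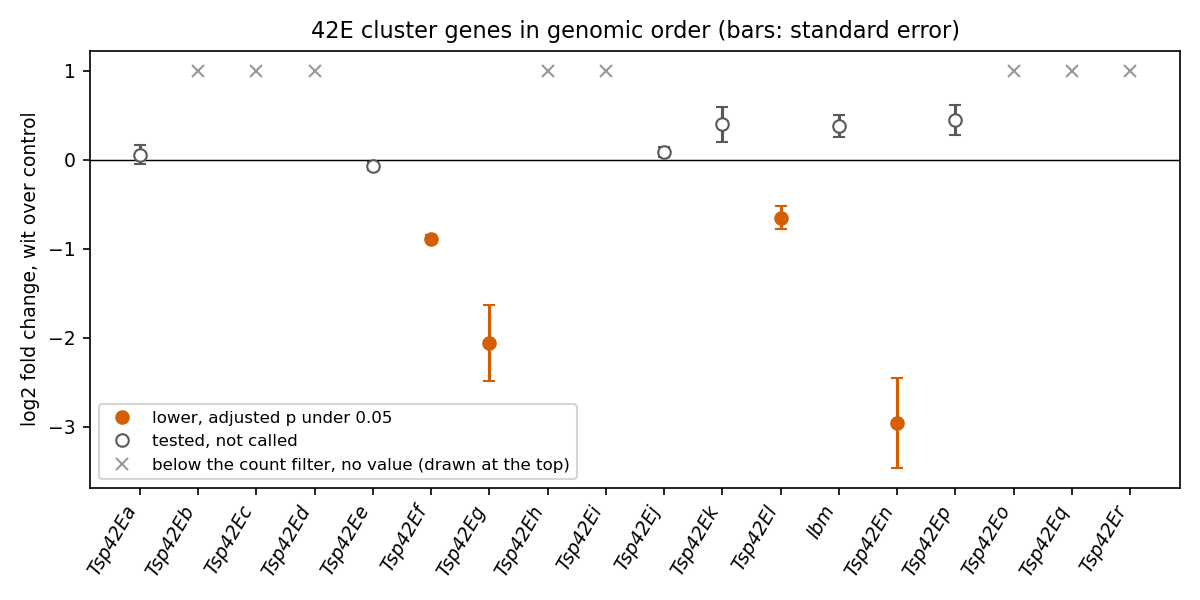
Log2 fold change (mutant over control, bars show the standard error) of the 42E cluster genes in their genomic order, with called genes filled and genes below the count filter as crosses at the top, which carry no value. Tsp42Ef, Tsp42Eg, Tsp42El and Tsp42En lie at -0.89, -2.06, -0.65 and -2.96, and the tested genes next to them lie near or above 0.

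The other cluster genes that were tested did not pass. The most abundant, Tsp42Ee, was at 502, 534, 519 and 480.1 CPM in the mutant libraries and at 548, 558, 527 and 502 CPM in the control libraries. The ranges overlapped, and the log2 fold change was -0.07 with a 95% interval of -0.17 to 0.03 (adjusted p = 0.345). The motor axon gene lbm was at 6.25, 8.88, 8.61 and 9.31 CPM in mutants and at 5.65, 6.54, 6.47 and 6.86 CPM in controls. Mutant library 1 lay within the control range and the other 3 above it. The difference narrowly missed the test (log2 fold change 0.38, 95% interval 0.11 to 0.64, adjusted p = 0.0560) and passed without mutant library 1 (0.48, adjusted p = 0.00184), while over all leave-one-out fits its adjusted p ran from 0.00184 to 0.132. The rhodopsin-sorting gene Tsp42Ej was at 36.9 ± 3.30 CPM in mutants and 34.7 ± 1.12 CPM in controls (0.09, adjusted p = 0.370). Tsp42Ek, which shares 107 exonic bases with it on the same strand, was at 3.09 ± 0.558 CPM in mutants and 2.34 ± 0.560 CPM in controls (0.39, 95% interval -0.03 to 0.82). Tsp42Ea was at 7.12 ± 0.751 CPM in mutants and 6.83 ± 0.771 CPM in controls (0.06, 95% interval -0.17 to 0.29).

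Outside the cluster the tested genes were mostly abundant and close between genotypes. Tsp66E (FBgn0035936, 3L:8912499-8932065, protein-coding) was at 112, 111, 113 and 104 CPM in the mutant libraries and at 122, 124, 123 and 115 CPM in the control libraries. The groups did not overlap, and the gap between them was small beside the levels. The mean fell to 109.9 ± 4.20 CPM in mutants, against 121 ± 4.05 CPM in controls (1.10-fold lower, log2 fold change -0.14, SE 0.04, adjusted p = 0.0355). This call depended on single libraries: it was lost without mutant library 2, 3 or 4 or control library 1, 2 or 3, at adjusted p from 0.0577 to 0.108. Tsp66E is on chromosome 3, of which the genotypes differ in 1 copy, and 173 of its exonic bases (7.42%) overlap the gene mfr on the opposite strand.

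Tsp96F, also on chromosome 3, was at 71.9, 59.8, 65.1 and 54.7 CPM in mutants and at 71.5, 75.9, 72.3 and 73.3 CPM in controls. Mutant library 1 again lay within the control range and the other 3 below it. The log2 fold change was -0.22 with a 95% interval of -0.38 to -0.07, which missed the test (adjusted p = 0.0599) and passed without mutant library 1 (-0.29, adjusted p = 0.00161).

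The 3 genes of the Kuzbanian group were expressed and did not pass. Tsp86D was at 47.9 ± 2.77 CPM in mutants and 45.9 ± 2.73 CPM in controls, with a log2 fold change of 0.06 and a 95% interval of -0.05 to 0.18. Tsp3A was at 28.0 ± 0.625 CPM in mutants and 26.9 ± 1.67 CPM in controls (0.06, interval -0.05 to 0.17). Tsp26A was at 32.2 ± 1.43 CPM in mutants and 32.4 ± 1.08 CPM in controls (-0.01, interval -0.11 to 0.09). For each of them the interval leaves room for a change of at most 0.18 on the log2 scale.

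Tsp97E, the second gene of the family by level, was at 268 ± 7.58 CPM in mutants and 269 ± 3.49 CPM in controls (log2 fold change -0.01, 95% interval -0.08 to 0.06). Tsp5D was at 71.8 ± 5.25 CPM in mutants and 71.9 ± 1.32 CPM in controls (-0.0022, interval -0.11 to 0.10), and Tsp39D at 57.1 ± 3.25 CPM in mutants and 58.7 ± 0.864 CPM in controls (-0.04, interval -0.13 to 0.05). Tsp47F, Tsp68C and Tsp74F were near the filter, with means of 0.338 to 0.654 CPM in mutants and 0.352 to 0.556 CPM in controls. Their log2 fold changes were 0.07, 0.25 and -0.04, and their intervals, the widest of which ran from -0.75 to 0.89, do not exclude sizeable changes either way.

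**Figure D3:**
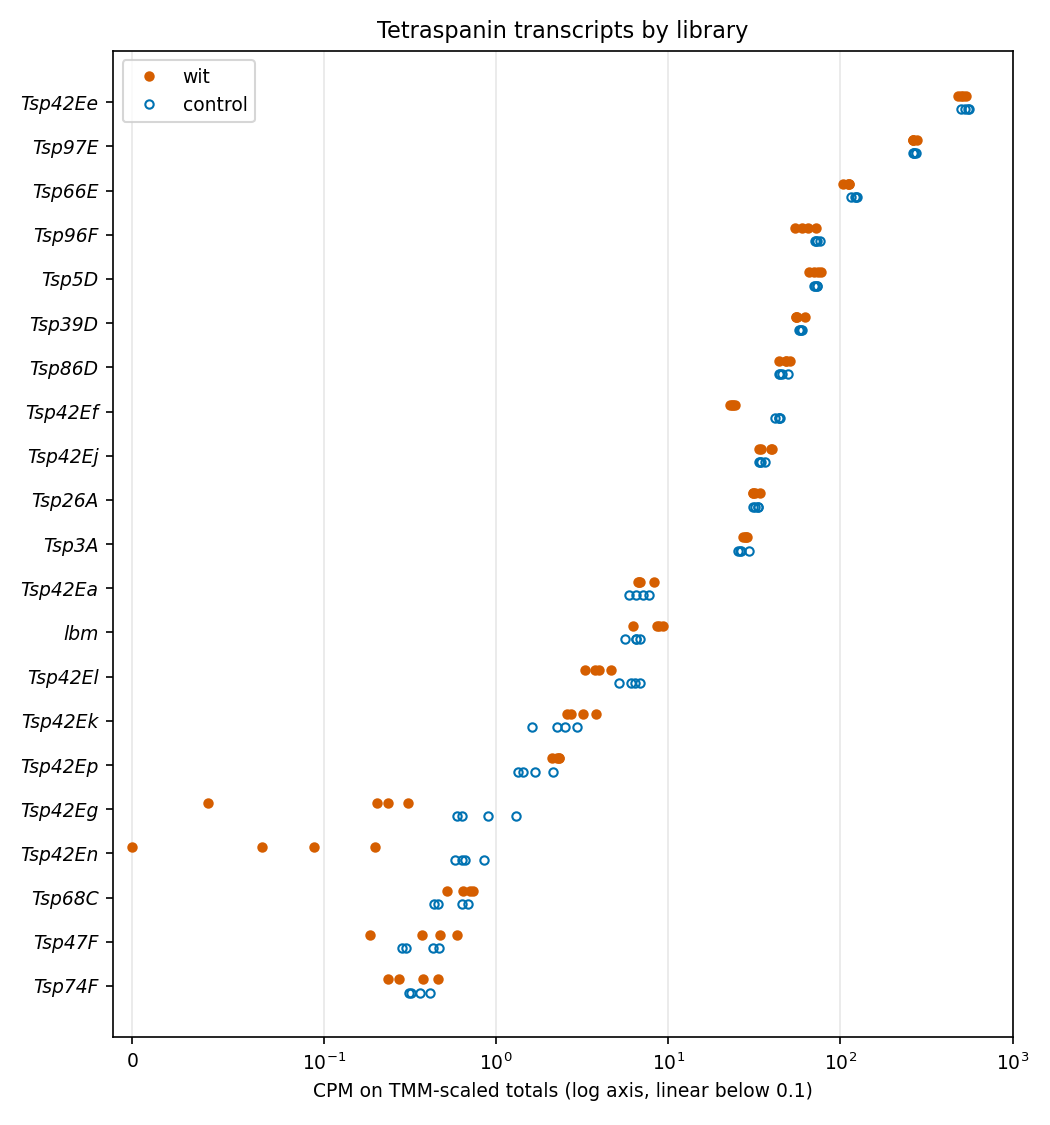
CPM of the 21 tested tetraspanin genes in each library (log axis, linear below 0.1), ordered by their control mean, with the 4 mutant libraries as filled points above the 4 control libraries as open points. Levels run from Tsp42Ee near 500 CPM to Tsp74F below 1 CPM, and the separated pairs of rows are Tsp42Ef, Tsp42El, Tsp42Eg, Tsp42En and, narrowly, Tsp66E.

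Scaled by exon length, a few genes made up most of the family's transcripts. In CPM per kilobase of exon, Tsp42Ee stood at 348 in mutants and 365 in controls, Tsp97E at 102 in mutants and 102 in controls, Tsp66E at 47.2 in mutants and 51.9 in controls, and Tsp5D at 34.1 in both. Tsp42Ej followed at 33.1 in mutants and 31.1 in controls, where Tsp42Ef, at 17.6 in mutants and 32.4 in controls, lay next to it. In CPM not scaled by exon length, Tsp42Ee took 39.4% to 40.6% of the tetraspanin sum in mutant libraries and 38.7% to 40.65% in control libraries. The sum over all 35 genes ran from 1218 to 1314 CPM in mutants and from 1295 to 1373 CPM in controls, so the groups overlapped. The cluster without Tsp42Ee summed to 82.6 to 88.0 CPM in mutants and 102.7 to 106 CPM in controls, which did not overlap, of which Tsp42Ef alone averaged 23.6 CPM in mutants and 43.7 CPM in controls.

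Another 14 members fell below the count filter of about 0.356 CPM in 4 libraries, and 8 of them belong to the cluster. Tsp42Eb had 0 counts in all 8 libraries, which allows up to 0.0926 to 0.142 CPM per mutant library and 0.0940 to 0.113 CPM per control library, counting error only. Over 4 libraries each, Tsp42Ec had 1 count in mutants and 0 in controls, Tsp42Eq had 2 in mutants and 0 in controls, Tsp33B had 3 in mutants and 0 in controls, and Tsp42Eh and Tsp66A each had 0 in mutants and 1 in controls. Tsp66A shares its whole exon sequence with 2 other annotated genes on the same strand, CG42660 and CG42661, so its count is uncertain. Tsp42A had 2 counts in each genotype, Tsp29Fa had 3 in mutants and 2 in controls, and Tsp42Ei 3 in mutants and 4 in controls. Tsp29Fb had 9 in mutants and 3 in controls, Tsp42Er 7 in mutants and 10 in controls, and Tsp42Ed 22 in mutants and 15 in controls. None of the counting intervals of these ratios excluded 1. The gut junction gene Tsp2A had 1, 5, 9 and 7 counts in mutants and 10, 10, 12 and 12 counts in controls. Its ratio was 0.528 with a counting interval of 0.301 to 0.900, and the mutant values lay wholly below the control values. In the fit without a count filter its p was 0.0447 before and 0.198 after adjustment over all genes, so it did not pass.

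Tetraspanin genes went both ways, with a negative log2 fold change for 12 of the 21 tested and for 4418 of all 9176 genes tested. The 12 include Tsp42Eg and Tsp42En, whose direction was fixed by the filter. The median of the 21 was -0.01, against 0.01 over 9176 genes. It was -0.01 for the 10 cluster genes and -0.01 for the 11 others. For the 8 cluster genes that did not pass the filter through controls alone it was 0.07. A shift of the family as a whole was not tested. The mutant values lay wholly below the control values for 5 of the 21 and wholly above for 0. For Tsp42Eg and Tsp42En this was fixed by the filter, whose level all 4 control libraries and 0 mutant libraries reached. Of the other 8 cluster genes 2 lay wholly below, as did 1 of the 11 genes outside the cluster. Over all 9176 genes tested 20.5% had no overlap, 1073 being lower and 809 higher in mutants. Of the 6 tested members on chromosome 3, 1 was called, while 15.2% of all genes tested on chromosome 3 and 14.4% of those on 2R were called. The genes of the cluster that fell covered a wide range of levels, from Tsp42Ef near 44 CPM to Tsp42En below 1 CPM in controls.

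**Figure D4:**
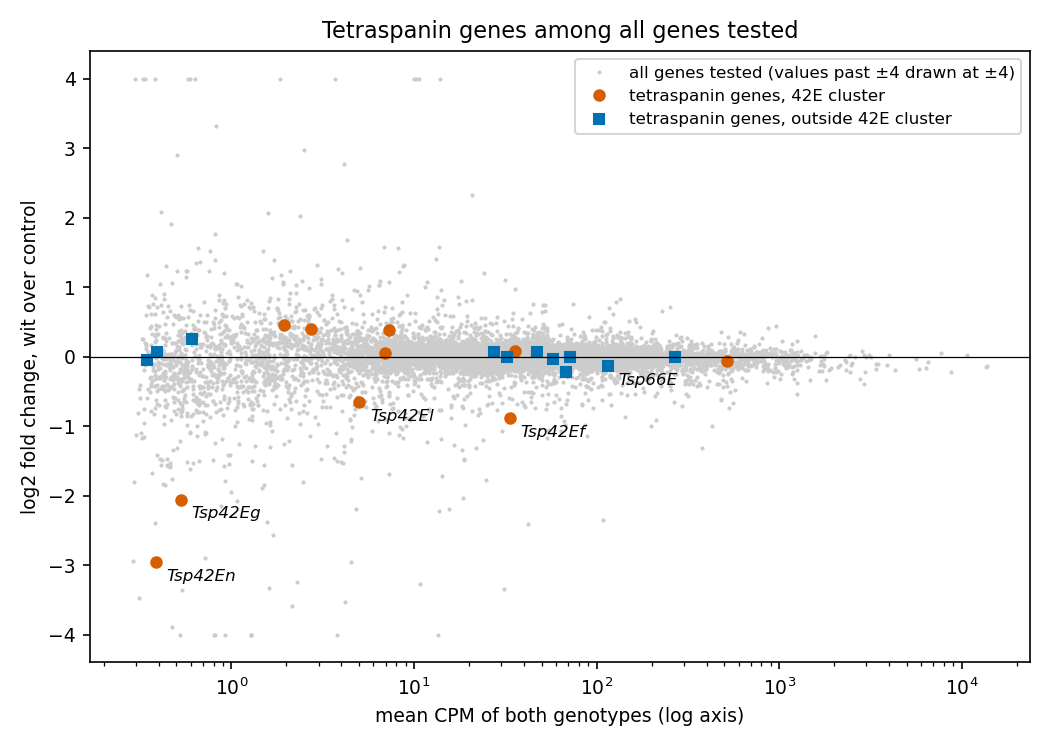
Log2 fold change (mutant over control) against the mean CPM of both genotypes (log axis) for all genes tested, with tetraspanin genes of the 42E cluster as circles and the others as squares. Most tetraspanin genes lie close to 0, and Tsp42Ef, Tsp42El, Tsp42Eg and Tsp42En stand at -0.89, -0.65, -2.06 and -2.96.

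Genes that work with tetraspanins were described as 4 lists, and no list was tested as a set. The share called was 18.2% in the Notch and Kuzbanian list and 30% in the integrin list. It was 16.7% in the septate junction list and 11.8% in the endosome list, against 14.8% over all genes tested. Without mutant library 1 the rises over all genes went up as well, from 562 to 1060. Of 11 tested genes of Kuzbanian shedding and Notch signalling, 1 fell, the Kuzbanian-like protease gene Kul (log2 fold change -0.16), and 1 rose, the gamma-secretase subunit gene pen-2 (0.24), with a list median of 0.10, and 3 rose without mutant library 1. The gene kuz itself was at 425 ± 51.3 CPM in mutants and 392 ± 12.1 CPM in controls (0.12, adjusted p = 0.340). Of 10 tested integrin adhesion genes 2 fell, the integrin alpha subunit gene if at 26.3 ± 3.39 CPM in mutants and 35.8 ± 1.76 CPM in controls (-0.45, adjusted p = 0.00398) and the talin gene rhea at 1315 ± 37.4 CPM in mutants and 1654 ± 64.2 CPM in controls (-0.33, adjusted p = 0.000342). In the same list stck, which encodes a partner of integrin-linked kinase, rose (0.12), and the median was -0.01. Of 12 tested septate junction genes 2 fell, the adhesion genes Nrg (-0.35) and Nrx-IV (-0.16), and 0 rose (1 without mutant library 1), with a median of -0.10. Of 17 tested genes of endosomes, lysosomes and extracellular vesicles 1 fell, the synaptotagmin gene Syt4 (-0.13), and 1 rose, the ESCRT gene TSG101 (0.16), with a median of 0.06, and 6 rose without mutant library 1. The calls of if, rhea, Nrg and Nrx-IV held in all 14 alternatives. Those of Kul and Syt4 were lost in 6, of pen-2 and TSG101 in 7 and of stck in 13, at adjusted p up to 0.132. All 5 were lost without control library 2 or 3. Leaving out control library 1 ended the calls of Kul, Syt4, pen-2 and stck, and control library 4 those of Kul, pen-2, TSG101 and stck. Mutant library 2 did so for pen-2, TSG101 and stck, mutant library 3 for Kul, Syt4, TSG101 and stck, and mutant library 4 for Syt4, pen-2, TSG101 and stck.

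Markers of cell types moved with these results in part, and no list was tested as a set. Over all genes tested 14.8% were called. The share was 83.3% for neurons, 71.4% for imaginal discs, 50% for motor neurons, 33.3% for optic lobe and 30% for glia. It was 20% for hemocytes, trachea and fat body, 16.7% for muscle, 14.3% for neuroblasts and 0% for gut. Without mutant library 1 the falls over all genes went up from 795 to 1124. For neurons 5 of 6 genes fell, and their summed level was 6283 to 6890 CPM in mutants and 7384 to 7687 CPM in controls, with a median log2 fold change of -0.19. For motor neurons 3 of 6 fell, with sums of 761 to 776 CPM in mutants and 1106 to 1133 CPM in controls. They were VGlut, the largest part of these sums (429 CPM in mutants, 684 CPM in controls), twit (log2 fold change -3.35) and zfh1 (-0.22). The transcripts of eve (-0.13), exex (-0.18) and tey (0.07) did not pass. The list was chosen with earlier results of these data known, so the fall of twit is no independent reading of motor neurons. For glia 3 of 10 fell (1043 to 1298 CPM in mutants, 1364 to 1412 CPM in controls). For fat body 1 of 5 fell, apolpp (sums of 579.5 to 617 CPM in mutants, 671 to 823 CPM in controls). Most of these sums was apolpp, with means of 583 CPM in mutants and 741 CPM in controls. It was the only 1 of the 5 with a negative log2 fold change, and the list median was 0.21. For imaginal discs 4 of 7 fell and 1 rose (374 to 396 CPM in mutants, 398.5 to 427 CPM in controls). The sums overlapped between genotypes for optic lobe and brain lobe genes (2 of 6 fell), hemocytes (1 of 5 fell), muscle (1 of 6 fell), trachea (1 of 5 rose), neuroblasts (1 of 7 fell) and gut (0 of 3 passed, with the trypsin genes alphaTry, betaTry and epsilonTry at or near 0). No listed marker in the files was at 0 in all libraries. The neuron count changed with single libraries, being 5 without mutant library 1, 3 without mutant library 2, 2 without mutant library 4 or control library 2 or 4, and 1 without control library 3. The glia count was 1 without mutant library 2 or control library 2 or 3. The single calls in hemocytes, trachea and neuroblasts, the rise in imaginal discs and 1 of the 2 optic lobe calls were lost without control library 3, among others, while 3 neuroblast genes fell without mutant library 1. The numbers of motor neuron, muscle and fat body genes that fell did not change when any 1 library was left out. The part of these cell types in the changes of tetraspanin genes was not tested.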

How the data were processed

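The authors deposited estimated counts per gene for 8 libraries, with 14175 gene identifiers, of which 13948 were named. Per the submitters' processing notes, kallisto 0.43.0, DESeq2 and build BDGP6 were used; how transcripts were summed to genes is stated in none of the sources used here. Values (31.36% were not integers) were rounded before testing. Coordinates and exon unions came from the Ensembl annotation of BDGP6. Genes were filtered by filterByExpr (minimum count 10), scaled by TMM and tested with edgeR 4.0.16 in R 4.3.3 (robust quasi-likelihood, genotype only, two-sided, Benjamini-Hochberg over all genes), after a check on simulated data. Alternatives used DESeq2 1.42.0 (size factors or its Wald test), limma-voom 3.58.1, other count filters, a replicate block, and leaving out each library; figures used matplotlib 3.10.9. Members and gene lists were chosen with earlier results of these data known. Named genes were all members, wit, and up to 4 called genes per list. The genes kuz, elav, repo, Mhc, sls, eve, exex, tey and the trypsin genes were added after their values were seen. Lists were matched by gene symbol, and entries whose symbol matched no gene in the files were not analysed here. These were Dl, Psn, nct, scb, vinc, ATPalpha, Vps4, PPO1, wupA and btl. Intervals on counts and the floor of 3 counts cover counting error only. Totals were 20923717 to 32740480 counts. Within a genotype, libraries differed beyond sampling noise (chi-square per degree of freedom 3.81 to 36.1), so each counted as a replicate.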

Additional observations from a re-analysis of the deposited data

Results flagged for a closer look

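In 42 groups of 4 libraries (21 tested genes in 2 genotypes), 5 held a library far from the other 3, where chance gives about 2.1. Mutant library 2 was highest for Tsp39D, at 61.94 CPM against 54.91 to 55.98 CPM in the other mutants, and for Tsp97E, at 278.9 CPM against 262.4 to 264.8 CPM. Mutant library 1 was highest for Tsp42Ea, at 8.243 CPM against 6.667 to 6.849 CPM. Mutant library 4 was lowest for Tsp66E, at 103.7 CPM against 111.2 to 112.6 CPM, and without it the call of Tsp66E was lost (edgeR adjusted p = 0.0909). Control library 4 was lowest for Tsp42Ef, at 42.01 CPM against 44.09 to 44.49 CPM in the other controls, and remained above all mutant values.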

How the results depend on the processing

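The calls of Tsp42Ef, Tsp42Eg, Tsp42El and Tsp42En held in every alternative that tested them. In fits with a count filter Tsp42Eg and Tsp42En entered through control libraries alone, so their direction there was fixed. Of the 21 fold changes 0 turned their direction while called. With a filter of 1 CPM in 4 libraries the rare genes were not tested, so falls numbered 3 in the family and 2 in the cluster. Rises in the family, all in the cluster, numbered 1 with the DESeq2 Wald test (lbm), 2 with limma-voom (lbm and Tsp42Ep), and 0 to 1 when each library was left out. Falls outside the cluster numbered 2 with the DESeq2 Wald test and with limma-voom (Tsp66E and Tsp96F), and 0 to 2 when each library was left out. Over leave-one-out fits falls numbered 4 to 7 in the family and 4 to 5 in the cluster. Over all genes, rises numbered 989 with limma-voom, 301 with the replicate block, and 304 to 1060 without 1 library, and falls 524 to 1124 without 1 library. With the replicate block the rises in the family and in the cluster numbered 1 (lbm, adjusted p = 0.0437). Libraries of different genotype correlated at 0.983 to 0.988. After each gene's genotype mean was subtracted, same-numbered libraries correlated at -0.310 to 0.0412 and the others at -0.175 to 0.207. The replicate numbers thus showed no sign of pairing. For the gene lists these alternatives were added after the data were seen. Notch and Kuzbanian rises numbered 2 with the DESeq2 Wald test, 3 with limma-voom and 0 with the replicate block, and endosome rises 4, 6 and 0. With the block, neuron falls numbered 2 and glia falls 1, and outside the leave-one-out fits the remaining list counts moved by at most 1. Depth limits Tsp42Eg, Tsp42En, Tsp42Eo and the other rare members. The cause of these differences was not tested.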
